A study of Mus musculus with 13 samples.

Results

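The histone acetyltransferase genes other than Kat7 are described here across the chromatin regions of the deposited table. The members were chosen by symbol: Kat5, Kat6a, Kat6b, Kat8, Ep300, Crebbp, Kat2a, Kat2b and Hat1, which are 9 of the 20689 genes with a gene body entry. Each was found by its Entrez identifier, and the regions counted with it were the CpG island that holds its transcription start site (TSS) and the elements of the file's Enh and IS classes that overlap its gene body or the 5 kb upstream. Islands holding the TSS were found for 6 of the 9 genes, and 52 Enh and IS elements lay at the 9 genes. The sources used here do not spell out Enh and IS.

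The cells were neural stem and progenitor cells cultured as floating spheres. They were derived from forebrain (cortex with ganglionic eminences) of day 14.5 mouse embryos and collected at passage 5, day 3. Chromatin immunoprecipitation and sequencing (ChIP-seq) used antibodies to histone H3 acetylated at lysine 14 (H3K14ac) and to the acetyltransferase KAT7, also called HBO1. Kat7-intact cells (Kat7+/+NesCreT/+) gave 4 H3K14ac and 3 KAT7 libraries, and Kat7-deleted cells (Kat7lox/loxNesCreT/+) gave 3 and 1. The antibody experiments each had 1 IgG control library. The Cre transgene, present in intact and deleted cells alike, is driven by nestin regulatory sequence, so deletion occurs in cells in which that sequence is or was active. The deposited table holds 1 merged value per region for each antibody. Which libraries and genotypes were merged is not stated, so neither the genotypes nor IgG can be compared here, and how much of a value is background is not known.

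Values are RPKM, the read count divided by region length and by a total per column (141734087 for H3K14ac and 134111848 for KAT7), with a 95% counting interval in parentheses. The columns are merged, so no spread between replicate libraries is known. Reads are not independent molecules, and the intervals cover counting error only. The ratio given for a region is KAT7 RPKM over H3K14ac RPKM. The antibodies share no scale, so a ratio is read against the ratios of other regions of its class. A ratio was called when one column exceeded the other by at least 25% and the interval lay on the same side of 1. The file marks 6 of 10 neural stem and progenitor marker genes (Fabp7, Nes, Olig2, Slc1a3, Sox2 and Vim) as top in expression and 0 of 21 markers of neurons, astrocytes, oligodendrocytes, vessels or microglia. The top class holds 1034 of the 20689 genes. Of the 21 markers, 18 are in the class named Other and 3 in the bottom class, so the counts do not show that other cell types are absent. All 9 acetyltransferase genes are in the class named Other, which holds 18620 of the 20689 genes.

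Histone acetyltransferases transfer the acetyl group of acetyl-CoA to lysines of histone tails, which loosens contacts with DNA and creates binding sites for bromodomain proteins. Mammals have several families. The MYST family holds KAT5 (TIP60), KAT6A (MOZ), KAT6B (MORF), KAT8 (MOF) and KAT7 itself; p300 (Ep300) and CBP (Crebbp) form a pair of large coactivators that are recruited to enhancers and promoters; KAT2A (GCN5) and KAT2B (PCAF) are the alternative catalytic subunits of the SAGA and ATAC complexes; and HAT1 acetylates newly made histone H4 before its deposition. KAT6B is known for its role in forebrain progenitors, and reduced dosage of p300 or CBP impairs neural development.

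The start sites separated the members more than the gene bodies did. At the Enh region that holds the TSS, present for all 9 genes, H3K14ac ran from 0.319 at Crebbp to 0.620 at Ep300 and KAT7 from 0.307 at Kat6a to 0.661 at Ep300. Over gene bodies the range was 0.324 to 0.398 for H3K14ac and 0.345 to 0.437 for KAT7, a factor of 1.23 and 1.26 from lowest to highest. The Enh regions are shorter and hold fewer reads, so counting error is larger there, and its share in their wider range was not tested. Regions of this Enh class with a TSS had medians of 0.437 and 0.469 over 8796 regions. The H3K14ac interval lay above that median at 3 members, Kat5, Ep300 and Kat2a, and below it at 2, Kat6a and Crebbp, and the KAT7 interval lay above its median at 1 member, Ep300, and below at 3, Kat6a, Kat6b and Crebbp. Of all 8796 regions, the H3K14ac interval lay above the median at 21.5% and below it at 19.2%, and the KAT7 interval at 15.2% and 14.5%.

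**Figure D1:**
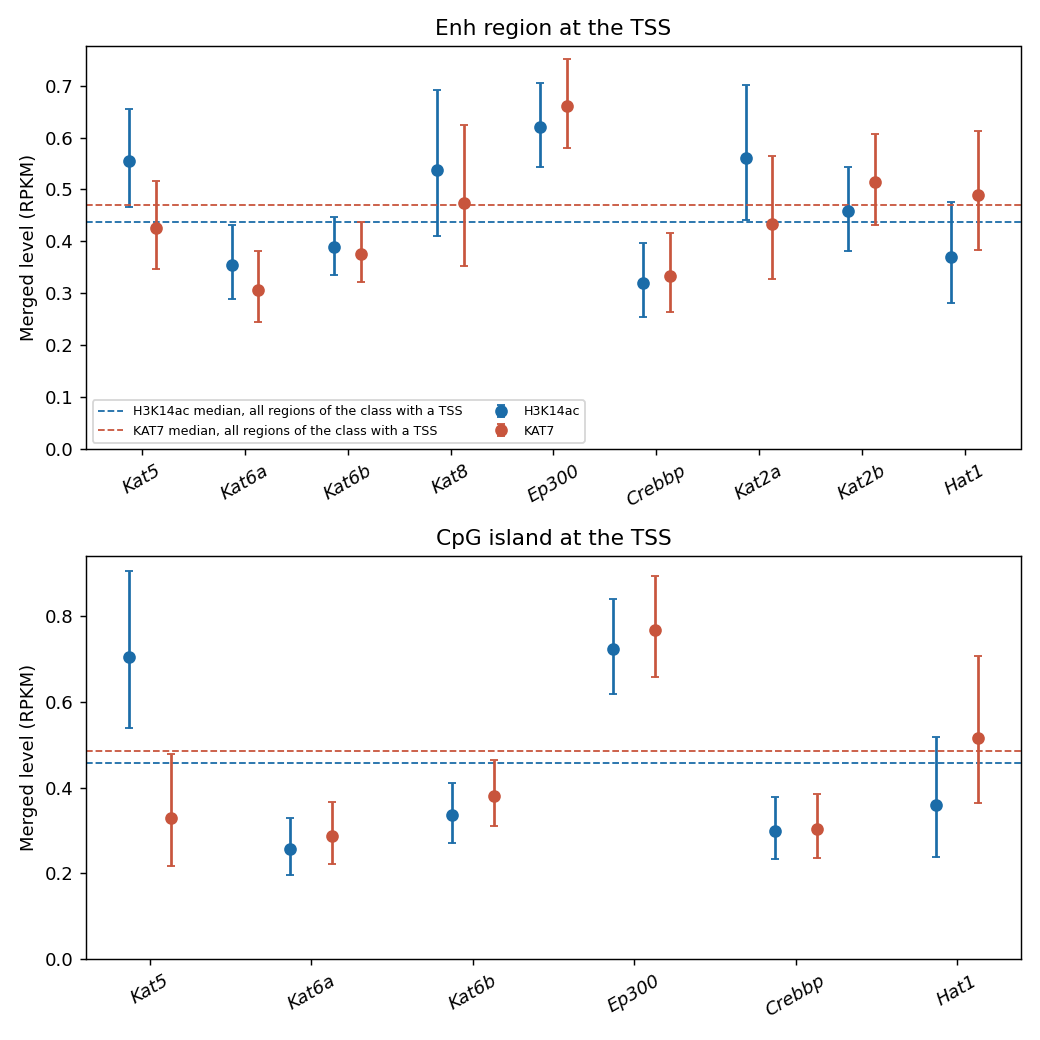
Merged H3K14ac and KAT7 levels (RPKM) at the Enh region holding the TSS of the 9 genes (upper panel) and at the CpG island holding the TSS of 6 of them (lower panel). Points are merged values, bars 95% counting intervals, and dashed lines the medians of all such regions with a TSS; Ep300 lies above both medians in each panel, and Kat6a and Crebbp lie below both.

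Ep300 and Crebbp, a pair of close relatives, stood far apart at their starts. Stretches upstream of their start sites are shown for this pair, and whether their sequence bears on that contrast was not tested. All promoter sequence here is from RefSeq on GRCm38.p6, written on the gene's strand with capitals at matches to the motifs listed further on. For Ep300 the stretch is chr15:81585964-81586208, plus strand, ending 6 bases before the TSS. For Crebbp it is chr16:4213410-4213439, minus strand, 35 to 6 bases before the TSS, a shorter stretch cut around its motif matches.
Ep300: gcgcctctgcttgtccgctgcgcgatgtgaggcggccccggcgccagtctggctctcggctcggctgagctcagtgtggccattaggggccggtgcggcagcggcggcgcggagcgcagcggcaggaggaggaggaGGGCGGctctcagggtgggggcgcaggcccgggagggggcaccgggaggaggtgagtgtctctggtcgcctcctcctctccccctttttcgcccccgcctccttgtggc
Crebbp: cggcggccggGGGCGGGCGGtgagcgctgc

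The island over the Ep300 TSS (chr15:81585125-81586774) had 0.723 (0.618–0.841) for H3K14ac and 0.769 (0.657–0.893) for KAT7. The island of Crebbp (chr16:4212834-4214506), 1673 bases against 1650, had 0.300 (0.234–0.378) and 0.303 (0.235–0.384). Ep300 was thus 2.41 (1.82–3.23) times Crebbp for H3K14ac and 2.54 (1.90–3.41) times for KAT7. The ratios of these islands were 1.06 (0.854–1.32) and 1.01 (0.715–1.43), and both intervals hold the median ratio, 1.06, of 8899 islands holding a TSS. Among those islands Ep300 stood at percentile 89.7 for H3K14ac and 95.3 for KAT7, and Crebbp at 16.9 and 7.12. In the wider Enh regions the factor was 1.94 (1.5–2.54) for H3K14ac and 1.98 (1.53–2.59) for KAT7. Over the gene bodies it was gone: 0.394 (0.381–0.407) at Ep300 and 0.389 (0.380–0.398) at Crebbp for H3K14ac, and 0.436 (0.422–0.450) and 0.429 (0.420–0.439) for KAT7, with factors of 1.01 (0.973–1.05) and 1.01 (0.976–1.06). The difference between the paralogs lay at the start, not along the transcribed sequence.

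Within the Ep300 start region the signal was concentrated. Outside the island, the Enh region had 0.451 (0.347–0.575) for H3K14ac and 0.484 (0.373–0.617) for KAT7. An IS element of 252 bases whose middle lies 659.5 bases upstream of the Ep300 TSS (chr15:81585429-81585680) had 1.66 (1.26–2.14) for H3K14ac from 59 reads and 0.891 (0.601–1.27) for KAT7 from 30 reads. Its H3K14ac was at percentile 99.7 of 443 IS elements of like length and distance from a TSS, whose median was 0.407, and its KAT7 was at percentile 98.1, so both columns were high. Its ratio of 0.537 (0.334–0.848) was called below 1 and stood at percentile 6.88 of the same elements. A second IS element, over the TSS (chr15:81586097-81586478), had 0.907 (0.671–1.20) and 0.979 (0.726–1.29), percentiles 92.9 and 98.9 of 404 like elements, with a ratio at percentile 54.6.

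At Crebbp the IS element over the TSS (chr16:4213290-4213452) had 0 H3K14ac reads and 7 KAT7 reads, 0.322 (0.130–0.664). The island and the Enh region that hold the same TSS had 71 and 80 H3K14ac reads. For a count of 0 a floor of 3 reads, or 0.131 RPKM, was set, and the KAT7 value was 2.47 times that floor. The 95% interval of the 0 count reached 0.161 RPKM. The lower 95% limit of the ratio, which takes in the counting error of both columns, was 1.52. The call was lost with 99% intervals. Of 783 IS elements of like length and distance, 2.04% had no H3K14ac read. Among them the KAT7 of the Crebbp element was low too, at percentile 15.5, against a median of 0.548. The element 348 bases downstream had ordinary levels of both, 0.680 and 0.662 against medians of 0.582 and 0.562. The element 855 bases upstream had 0.797 for H3K14ac from 14 reads and 0.421 for KAT7 from 7, percentiles 73.8 and 24.2 of like elements. Its ratio of 0.528 (0.180–1.40) could not be told from 1.

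Among the MYST genes, Kat6a had a low island, Kat6b a moderately low one and Kat5 a skewed one. Kat6a, whose protein is the catalytic subunit of the MOZ complex, had 0.256 (0.196–0.329) for H3K14ac and 0.288 (0.223–0.367) for KAT7 at its island (chr8:22858896-22860577), percentiles 10.6 and 5.56. Kat6b, with the same place in the MORF complex, had 0.335 (0.270–0.412) and 0.382 (0.310–0.465) at its island (chr14:21499430-21501345), percentiles 23.0 and 20.5. Kat6b was 1.31 (0.936–1.84) times Kat6a for H3K14ac and 1.32 (0.958–1.84) times for KAT7, so both intervals of this pair include 1 at the island. Kat6a also had an IS element without H3K14ac, 304.5 bases upstream of the TSS (chr8:22859115-22859354). It had 8 KAT7 reads, 0.250 (0.108–0.492), or 2.82 times the floor of 0.0886 for H3K14ac, and the lower 95% limit of the ratio was 1.80. Its KAT7 was low too, at percentile 8.64 of like elements, whose median was 0.519. In Kat6b an element 819.5 bases downstream (chr14:21500527-21500652) had 0 and 4 reads, which counting error does not separate, with KAT7 at percentile 3.95 of like elements. These and the Crebbp element were the 3 of 52 elements without an H3K14ac read, and all 3 lie inside the TSS island. In the file 0.421% of elements like that of Kat6a and 0.959% of those like that of Kat6b had none.

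The IS elements on both sides of the empty ones varied. At Kat6b the neighbour 329.5 bases downstream of the TSS had 0.631 for H3K14ac and 0.534 for KAT7, percentiles 65.3 and 49.4 of like elements, and the neighbour 1691 bases downstream had 0.341 and 0.360, percentiles 33.0 and 26.9. At Kat6a the neighbour 675 bases upstream had 0.719 and 0.427, percentiles 87.2 and 49.1, and the neighbour over the TSS had 0.159 and 0.336 from 3 and 6 reads, percentiles 16.2 and 19.5. The highest Kat6b element near the start, 458.5 bases upstream, had 0.828 and 0.840, percentiles 88.3 and 89.8 among 712 like elements.

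**Figure D2:**
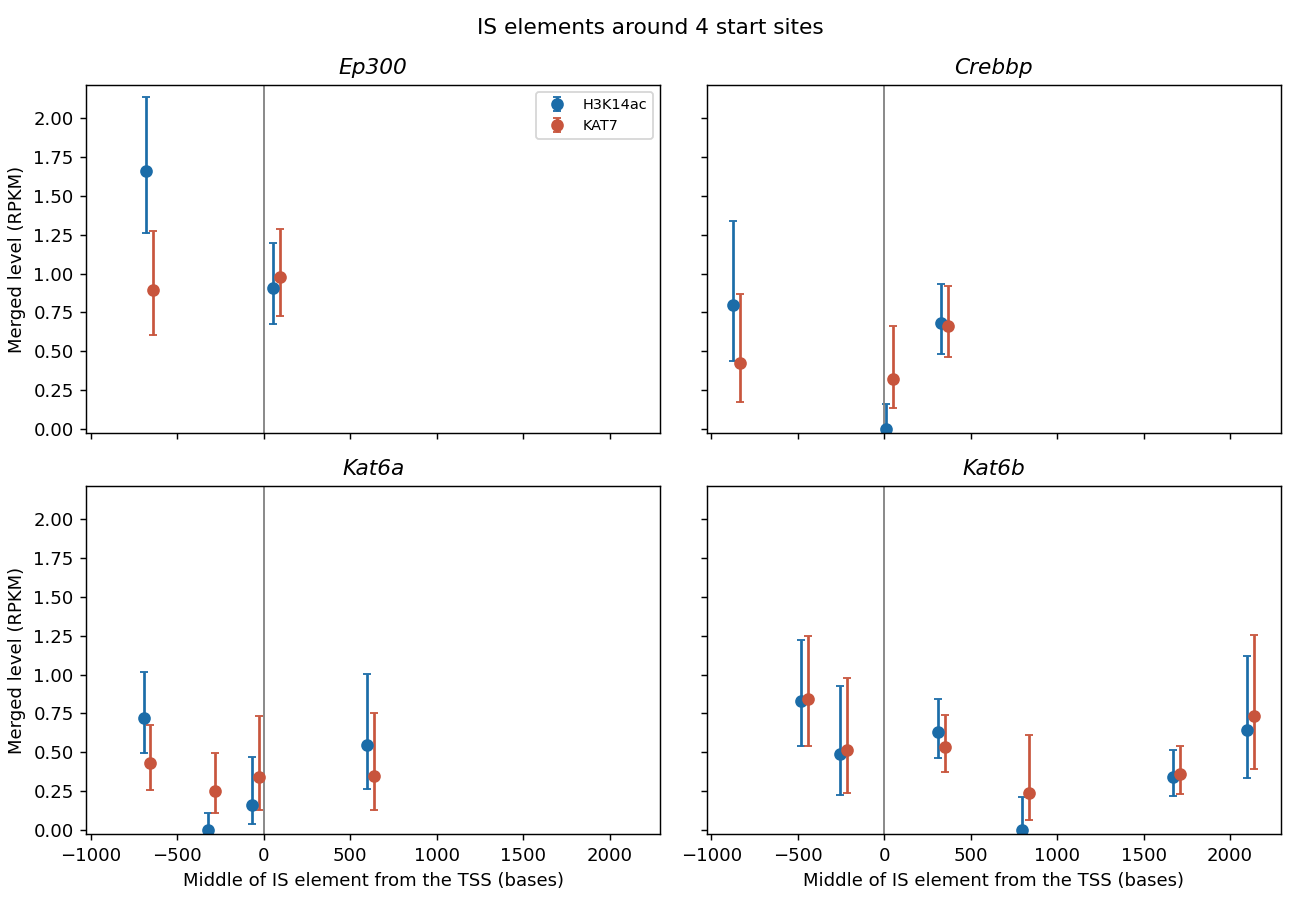
Merged H3K14ac and KAT7 levels (RPKM) of IS elements around the TSS of Ep300, Crebbp, Kat6a and Kat6b, by the distance in bases of the element's middle from the TSS, with 95% counting intervals and points drawn slightly apart. The upstream Ep300 element has 1.66 for H3K14ac, and H3K14ac is 0 in 1 element each of Crebbp, Kat6a and Kat6b.

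Kat5, which encodes the catalytic subunit of the TIP60 complex, was the member with the most unequal island. The stretch chr19:5610252-5610281 (minus strand), 187 to 158 bases before its TSS, lies inside that island and holds an E-box and a CCAAT box. It is set here beside Hat1 (chr2:71389010-71389259, plus strand, the 250 bases before the TSS), the member with the highest island ratio, and Kat8 (chr7:127912267-127912516, plus strand, the 250 bases before the TSS), a member without an island at its TSS.
Kat5: tCACGTGacagactcggcgttcctCCAATc
Hat1: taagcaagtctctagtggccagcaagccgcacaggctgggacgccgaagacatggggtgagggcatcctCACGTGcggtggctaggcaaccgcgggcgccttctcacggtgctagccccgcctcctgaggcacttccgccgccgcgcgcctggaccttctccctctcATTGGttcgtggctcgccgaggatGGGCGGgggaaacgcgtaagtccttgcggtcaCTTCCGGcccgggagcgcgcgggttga
Kat8: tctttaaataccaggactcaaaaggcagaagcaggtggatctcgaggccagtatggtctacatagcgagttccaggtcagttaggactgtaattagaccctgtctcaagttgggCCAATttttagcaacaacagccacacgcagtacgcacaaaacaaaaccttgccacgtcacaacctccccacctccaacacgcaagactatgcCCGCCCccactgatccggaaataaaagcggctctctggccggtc

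At the Kat5 island (chr19:5609691-5610302) H3K14ac was 0.704 (0.539–0.905) from 61 reads and KAT7 was 0.330 (0.217–0.479) from 27 reads. The ratio of 0.468 (0.286–0.747) stood at percentile 1.12 of all islands holding a TSS. Of the 6 member islands 1 was called, this one, where 8.14% of all islands were called below 1 and 14.7% above, and 8.17% had an interval below 1. H3K14ac was at percentile 88.4 and KAT7 at 10.7, so both columns contributed to the skew. In the part of the Enh region outside the island the levels were 0.475 (0.375–0.594) and 0.476 (0.373–0.599), a ratio of 1.00 (0.717–1.40), and over the whole Enh region the ratio was 0.766 (0.586–0.998). That was the only call among the 9 Enh regions at a TSS, where 6.4% of 8796 regions were called below 1 and 14.3% above, and it was lost at 1.5-fold and with 99% intervals. Over the Kat5 gene body the levels were 0.358 (0.322–0.397) and 0.356 (0.319–0.396). Neither the rest of the Enh region nor the gene body showed the skew of the island. Kat7, the gene under study and a member of the same family, had a like island ratio, 0.548 (0.367–0.810). Kat6a and Kat6b, also of that family, had island ratios of 1.13 and 1.14, and neither could be told from 1.

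Kat8, whose protein acetylates histone H4 at lysine 16 in the MSL and NSL complexes, had 0.538 (0.410–0.692) and 0.474 (0.352–0.625) at its Enh region (chr7:127912056-127912843), percentiles 76.0 and 52.9 of regions of like length. Its gene body was the lowest of the members in both columns, 0.324 (0.299–0.351) for H3K14ac and 0.345 (0.318–0.374) for KAT7. The Kat8 entry shares 46 bases with that of Prss8, and how reads in shared bases were counted is not stated, so Kat8 was left out of counts of called gene bodies.

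Kat2a and Kat2b, the interchangeable SAGA and ATAC subunits, had no island over the TSS as the file places it. The Kat2b island (chr17:53566976-53568220) starts 5 bases downstream of the TSS and had 0.448 (0.355–0.558) for H3K14ac and 0.563 (0.455–0.689) for KAT7. At the Enh regions H3K14ac was 0.560 (0.440–0.702) at Kat2a and 0.457 (0.382–0.544) at Kat2b, and KAT7 was 0.434 (0.327–0.565) and 0.514 (0.431–0.608). Neither difference exceeded counting error, with Kat2b at 0.817 (0.610–1.10) times Kat2a for H3K14ac and 1.18 (0.859–1.65) times for KAT7. Over gene bodies the H3K14ac of the pair differed by less than counting error, 0.355 (0.321–0.393) and 0.360 (0.350–0.370), and Kat2b had 0.903 (0.820–0.996) times the KAT7 of Kat2a.

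Hat1 leaned the other way, with more KAT7 than H3K14ac upstream of its start. In the 2001 bases before its TSS (chr2:71387260-71389260) H3K14ac was 0.303 (0.243–0.375) and KAT7 0.485 (0.405–0.576), a ratio of 1.6 (1.21–2.12) at percentile 98.1 of promoters. This was the only call among the promoter windows of the 6 plus-strand members, where 14.3% of 9809 promoters were called above 1 and 3.05% below. The island (chr2:71389036-71389586) had 0.359 (0.239–0.519) and 0.515 (0.365–0.707), and its ratio of 1.43 (0.857–2.43) could not be told from 1. A pair of 151-base Enh elements inside Hat1, 29815 and 31895 bases from the TSS, had KAT7 levels of 0.944 (0.569–1.47) and 1.14 (0.725–1.72), percentiles 91.9 and 98.4 of 8114 like elements. H3K14ac there was 0.611 (0.326–1.05) and 0.894 (0.538–1.40), and neither ratio left 1.

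Set against its own gene body, the start was raised in some members and not in others. H3K14ac at the Enh region was above the gene body in Kat8 by a factor of 1.66 (1.2–2.16), in Kat2a by 1.58 (1.21–2.02), in Ep300 by 1.57 (1.37–1.80), in Kat5 by 1.55 (1.27–1.89) and in Kat2b by 1.27 (1.06–1.51). It could not be told from the gene body in Kat6a, Kat6b, Crebbp and Hat1. KAT7 was above the gene body in Ep300 by 1.52 (1.32–1.73), in Kat8 by 1.37 (1.01–1.83) and in Kat2b by 1.30 (1.09–1.55). It was below the gene body in Kat6a, at 0.738 (0.585–0.920) times, and in Crebbp, at 0.776 (0.614–0.969) times. Over 7833 genes the median factor was 1.16 for H3K14ac and 1.13 for KAT7. The factor itself, without regard to its interval, was above 1 at 68.9% of these genes for H3K14ac and 71.8% for KAT7. Its 10th to 90th percentiles were 0.758 to 1.65 for H3K14ac and 0.851 to 1.53 for KAT7.

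**Figure D3:**
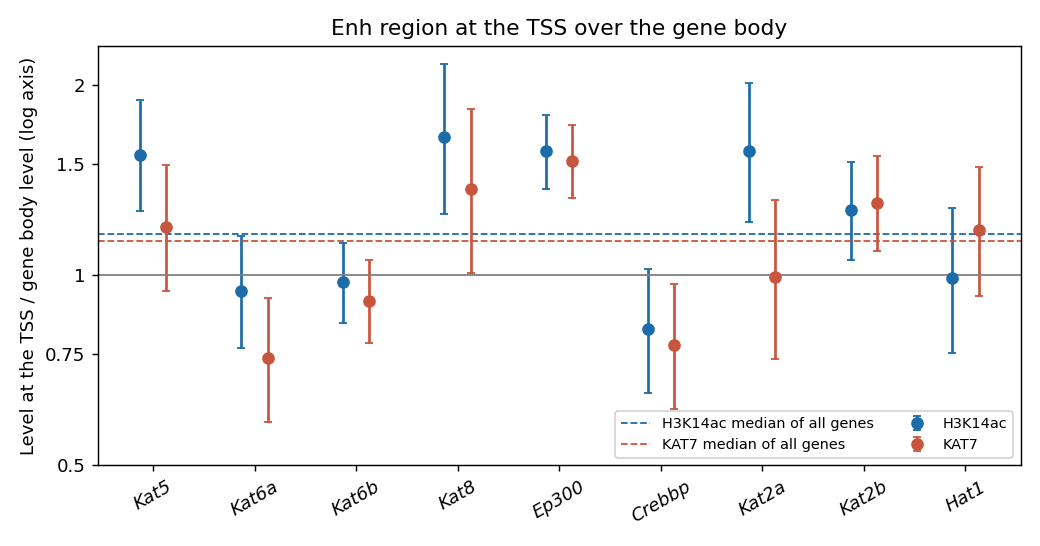
Level at the Enh region holding the TSS divided by the gene body level, for each antibody and member (log axis), with 95% counting intervals; dashed lines are medians over 7833 genes. Ep300 lies at 1.57 and 1.52, and KAT7 at Kat6a and Crebbp lies below 1.

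Over gene bodies KAT7 was slightly above H3K14ac at most members. The ratio was 1.23 (1.07–1.41) at Kat2a, 1.11 (1.06–1.16) at Kat6a, 1.11 (1.05–1.17) at Hat1, 1.11 (1.06–1.16) at Ep300, 1.10 (1.07–1.14) at Crebbp, 1.09 (1.05–1.14) at Kat2b and 1.04 (1.01–1.07) at Kat6b. These 7 intervals lay above 1, as did 34.2% of 15774 gene bodies, and none lay below 1, as did 9.06%. At Kat8, with 1.06 (0.949–1.19), and Kat5, with 0.995 (0.855–1.16), the ratio could not be told from 1. Against the median ratio of all gene bodies, 1.05, the interval lay above at 6 members, all of the 7 except Kat6b, as it did at 19.2% of all gene bodies. With each column divided by its gene body median, Kat6b lay at 0.990. Among gene bodies of like length, whose median ratio was 1.00, Kat6b stood at percentile 77.3. None of the 8 gene bodies counted was called, where 6.36% of all gene bodies were called above 1 and 1.07% below. Long genes carry many reads and narrow intervals (Kat6b has 9746 H3K14ac reads, Kat2a 389), so an interval clear of 1 says little about size.

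**Figure D4:**
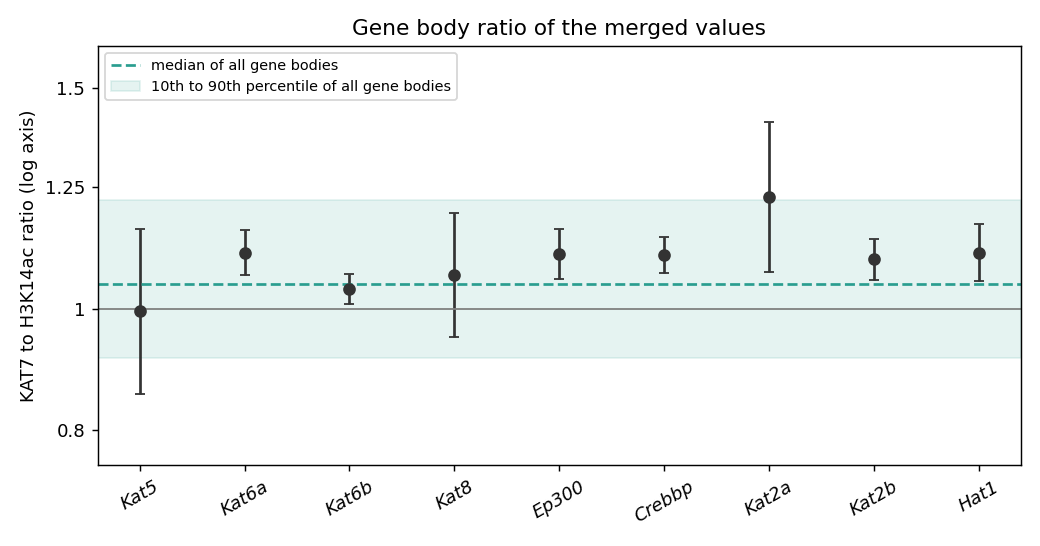
KAT7 to H3K14ac ratio over the gene bodies of the 9 members (log axis) with 95% counting intervals; the dashed line is the median of all gene bodies, 1.05, and the band their 10th to 90th percentile, 0.914 to 1.22. All points except Kat2a, at 1.23, lie inside the band, which covers gene bodies of all lengths. Among gene bodies of like length the ratio of Crebbp stood higher (percentile 94.9) than that of Kat2a (83.7).

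In 500 gene bodies of like length, KAT7 was high at Ep300 (percentile 94.7), Crebbp (92.3) and Kat2a (84.5) and low at Kat8 (9.80) and Kat5 (18.1). H3K14ac was at or below the middle for most, from percentile 7.70 at Kat2b to 65.1 at Ep300. After the transcription end, in windows of 2001 bases available for the 6 plus-strand members, H3K14ac ran from 0.332 at Kat2b to 0.402 at Kat6b and KAT7 from 0.347 at Kat8 to 0.455 at Ep300, and no ratio left 1. The Ep300 promoter window was again among the highest, with 0.568 (0.484–0.663) and 0.570 (0.484–0.668), percentiles 98.3 and 97.9. The promoter windows of Kat6b and Kat6a stood higher than their islands. Kat6b had 0.480 (0.403–0.568) and 0.496 (0.415–0.588) there, percentiles 91.8 and 89.9. Kat6a had 0.427 (0.354–0.510) and 0.380 (0.310–0.462), percentiles 75.5 and 30.7.

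Of the 52 Enh and IS elements, 4 were called above 1 and 3 below, where 6.51% and 4.15% of all 98398 such elements were. Among the 9 Enh elements near a TSS 0 were called above and 1 below (12.9% and 5.11% of the class), and among the 13 far from one 2 and 1 (4.92% and 3.65%). Among the 21 IS elements near a TSS 2 were called above and 1 below (7.63% and 4.8%), and among the 9 far from one 0 in either direction (3.19% and 3.34%). With 0 to 2 calls in a class, nothing is read from these counts about the members. The Kat6a and Crebbp elements without H3K14ac reads, the upstream Ep300 element and the Kat5 Enh region, described above, are 4 of the 7 called. Inside Kat6b an Enh element of 1234 bases, 24122.5 bases from the TSS (chr14:21523276-21524509), had 0.389 (0.302–0.493) for H3K14ac and 0.587 (0.476–0.716) for KAT7, a ratio of 1.51 (1.09–2.09) whose call was lost with 99% intervals, and its KAT7 was at percentile 98.7 of 3601 like elements. Inside Kat2b an Enh element of 1397 bases, 20571 bases from the TSS (chr17:53586844-53588240), went the other way, with 0.521 (0.425–0.631) and 0.363 (0.282–0.460), a ratio of 0.698 (0.506–0.957) whose call was lost at 1.5-fold and with 99% intervals. In Crebbp a 151-base Enh element 52689 bases from the TSS (chr16:4160640-4160790) had 3 and 15 reads, a ratio of 5.28 (1.49–28.5). A 91-base IS element 51975 bases into Kat2b had 1.24 (0.696–2.05) for KAT7 from 15 reads, percentile 97.5 of 23157 like elements. Reads that reach over an edge weigh more in short elements, so levels are read against elements of like length, and elements that overlap an island or each other share reads.

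RefSeq promoter windows, 250 bases before to 50 after the start, were found for 8 members: Kat5, Kat6b, Kat8, Ep300, Crebbp, Kat2a, Kat2b and Hat1. Kat6a is named only. The GC content ran from 47% at Kat2b through 53% at Kat8, 54.3% at Kat2a, 57% at Kat5, 66.7% at Hat1, 72.3% at Ep300 and 78.3% at Kat6b to 82% at Crebbp, against a median of 52.7% over 27025 windows. Among the 500 genes nearest in GC content, the Enh region of Ep300 was at percentile 85.8 for H3K14ac and 93.4 for KAT7. That of Crebbp was at 25.4 and 14.6, and that of Kat6b at 42.4 and 26.0. Without matching on GC content the percentiles were 89.3 and 92.3 at Ep300, 16.0 and 7.45 at Crebbp, and 34.4 and 16.7 at Kat6b. Motifs were searched on both strands, with overlapping matches counted. GGGCGG, the GC box bound by SP factors, was found in 5 of 8 windows, against 35.9% of all. CCAAT was in 4 of 8 (37.9% of all), CCGGAAG, an ETS motif, in 3 of 8 (9.12%) and CACGTG, the E-box, in Kat5 and Hat1 (7.24%). None of the 8 held TATAAA (14.2% of all), the palindromic NRF1 motif (0.977%) or TGACGTCA (1.88%). Kat6b held 8 matches to GGGCGG. A match describes the letters and says nothing of binding.

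Partners of these enzymes were described from lists of complex subunits, recruiters and readers holding 83 genes, of which 63 had a counted autosomal gene body. The gene body ratio interval lay above 1 at 52 of the 63 and below 1 at none, against 34.2% and 9.06% of all gene bodies, and the median ratio was 1.14, against 1.05. Of the 63, 5 were called above 1 and none below, against 6.36% and 1.07% of all. Partner genes were not matched for length, and whether an interval clears 1 depends on the number of reads. The ratio also varied with length, with a median of 1.08 among gene bodies as long as Kat5 and 1.00 among those as long as Kat6b. By list, the interval lay above 1 at 12 of 14 TIP60/NuA4 genes (median ratio 1.15), 5 of 5 MOZ/MORF genes (1.13), 5 of 5 MSL and NSL genes (1.16), 13 of 13 SAGA and ATAC genes (1.16), 6 of 10 p300 and CBP partners (1.08), 5 of 5 HAT1 and histone chaperone partners (1.14) and 6 of 11 acetyl-lysine readers (1.09). Crtc2, a coactivator of CREB, had 1.30 (1.14–1.48), and Actl6a, an actin-related subunit shared with chromatin remodellers, 1.29 (1.18–1.42). Brd9, a bromodomain protein gene, had 1.26 (1.16–1.37). Dpf3, a reader of acetylated histone tails, had 1.00 (0.977–1.03) and Ncoa2, a nuclear receptor coactivator, 1.03 (1.01–1.06), the lowest upper bounds of their lists, while the lowest ratio of the 63 was 0.815. At 65 TSS islands of partners the medians were 0.424 for H3K14ac and 0.446 for KAT7, against 0.347 and 0.356 at the 6 member islands and 0.458 and 0.487 at all islands holding a TSS. By distance in the log2 values of both columns over gene bodies, the partner gene most like Ep300 was Nasp (0.391 and 0.436), which was also nearest to Crebbp, and Phf20 (0.376 and 0.417) was nearest to both Kat6a and Hat1.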

How the data were processed

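The deposited table holds whole-number read counts and RPKM for 240814 regions in 12 classes, in 1 merged column per antibody, per the file headers. Bowtie2, deepTools, featureCounts, Picard, SAMtools and the build mm10 are named, per the submitters' processing notes, without roles; versions and the merged libraries are not stated. The authors' RPKM equalled the count over end minus start and 1 read total per column for 100% of regions with reads (relative tolerance 1e-06). The column names hold gc, and whether alignments were corrected for base composition before counting is not stated.

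Analyses used Python 3.11.15, pandas 2.3.3 and scipy 1.17.1. Levels carry exact Poisson and ratios exact binomial 95% intervals, tested on simulated data. No test across samples was possible on merged columns. Compared sets were autosomal regions at or below 5 RPKM, with a mean of at least 0.1 RPKM and no base shared with another region of their class; 29067 entries shared bases. Entries of negative length, 20580, were not used. Symbols came from RefSeq (GRCm38.p6) and matched 96.7% of gene bodies. Coordinates are as the file gives them. Elements were compared within class, band of length and distance from the nearest TSS. Members, lists and motifs were chosen with earlier results of these data known. All members were named; of each partner list, at most the genes with the highest lower and lowest upper bound of the ratio, and for each member the partner gene nearest in log2 levels; of elements, those with the highest levels or an interval clear of 1. Other elements, around start sites, were chosen after their values were seen. The alternatives were scaling by class medians, keeping regions that share bases, no minimum, 1.5-fold, 99% intervals, other assignments and comparison sets, and, added after the values were seen, matching on GC content.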

Additional observations from a re-analysis of the deposited data

How the results depend on the processing

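No paired analysis was possible because the columns are merged and carry no replicate. The counts of called gene bodies (0) and called TSS islands (1, Kat5) were the same under every alternative run for them. Of the Enh and IS elements, 4 were called above 1 and 3 below. With 1.5-fold 1 was called below (Ep300), with 99% intervals 2 above (Kat6a and the Crebbp Enh element) and 1 below (Ep300), and with at least 20 reads in both columns together 1 above, since the Kat6a and Crebbp elements, with 7 to 18 reads, then drop out. With each column divided by the median of its class, the gene body ratio was 1.05 at Crebbp, 1.05 at Kat2b, 1.06 at Kat6a, 1.06 at Ep300 and 0.990 at Kat6b, so the value at Kat6b lay on the other side of 1. The H3K14ac gene body of Crebbp was at percentile 38.7 at like length and 58.4 among all. With the nearest island within 1000 bases, Kat2b entered with a ratio of 1.26 (0.922–1.72). The islands rest on 27 to 170 reads per column. No background was subtracted here.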

Other observations

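Regions of the file's H3K9me3 classes overlapped 4 members, Kat6a, Kat6b, Crebbp and Kat2b, with 7 entries in set 1 and 3 in set 2. Their levels were 0.335 to 0.425 for H3K14ac and 0.387 to 0.449 for KAT7 in set 1, beside 0.360 to 0.398 and 0.394 to 0.429 over the gene bodies of the same 4 genes. Entries of the class named Pseudogenes overlapped all 9 members, 17 in all, and 8 of these held 0 reads in both columns. The entries at Hat1 reached at most 0 for H3K14ac and 0.000142 for KAT7, where its gene body had 0.373 and 0.414. How reads in bases shared between entries were counted is not stated, so these zeros are not read as an absence of signal. The entry over Kat6a had 0.376 and 0.415, where its gene body had 0.375 and 0.416.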
